A study of Mus musculus with 4 samples.

Results

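The pontine nucleus of ICR mice was compared between the arrays labelled postnatal day 14 (P14) and postnatal day 5 (P5). These were 2 of the 4 arrays of a developmental series. The dissected tissue of 12 mice was pooled for P14 and that of 13 mice for P5, and each pool of total RNA was hybridised to 1 Affymetrix array. No age had a replicate, and the labels name no genetic change or treatment in either group. Each gene was represented by 1 probe set that carries its symbol alone, the one brightest on average across both arrays. This gave 19938 genes. Of these, 10431 reached a log2 signal of 8.45, the median of all such probe sets over the 2 arrays, on at least 1 of them, and 9507 did not. All differences are P14 minus P5 on the log2 scale, so a positive value is higher on the array labelled P14, called the P14 array from here on.

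Neurons of the pontine nucleus use glutamate and relay cortical input to the cerebellum, where their axons end as mossy fibres. They arise in the rhombic lip, migrate to the pons before birth, and form and refine their synapses in the cerebellum after birth. In the same postnatal period oligodendrocytes wrap the axons of the pons in myelin, astrocytes mature, and channels, receptors and cytoskeletal proteins of young neurons give way to adult forms.

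The differences below run from the P5 array to the P14 array by label, but similarity between arrays did not follow age. Over the 10431 genes, the P1 array had a Pearson correlation of 0.797 with the P5 array and 0.965 with the P14 array. For the E17.5 array the values were 0.746 and 0.909. The P5 array and the P14 array correlated at r = 0.88. The P14 array was therefore the nearer of the 2 to both earlier ages. Labels are kept here as deposited, and whether the 2 were exchanged was not tested. If they were, every difference printed here would have the opposite sign. Each array is 1 pool, so age, pool and array cannot be told apart, and no difference could be tested. The one error the files allow comes from genes measured by several probe sets. Their scatter gave a standard deviation of 0.14 for a difference, over 618 such genes past the level. In bulk tissue, fewer cells of a type and less RNA per cell cannot be told apart either.

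Most genes differed little between the arrays, and more of the large differences were lower than higher on the P14 array. A 2-fold difference or more was seen upward in 222 of the 10431 genes (2.13%) and downward in 490 (4.7%), which makes 6.83% in either direction. At 4-fold the counts were 24 higher and 86 lower, and at 8-fold they were 1 higher and 18 lower. The median difference was −0.09, with quartiles of −0.36 and 0.19. Of all 10431 differences, 4290 were positive and 6050 negative. For 80 of the 222 higher and 199 of the 490 lower genes the lower value lay under 8.45, where signal and background are not separated by these files, so no fold is given for such genes.

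**Figure D1:**
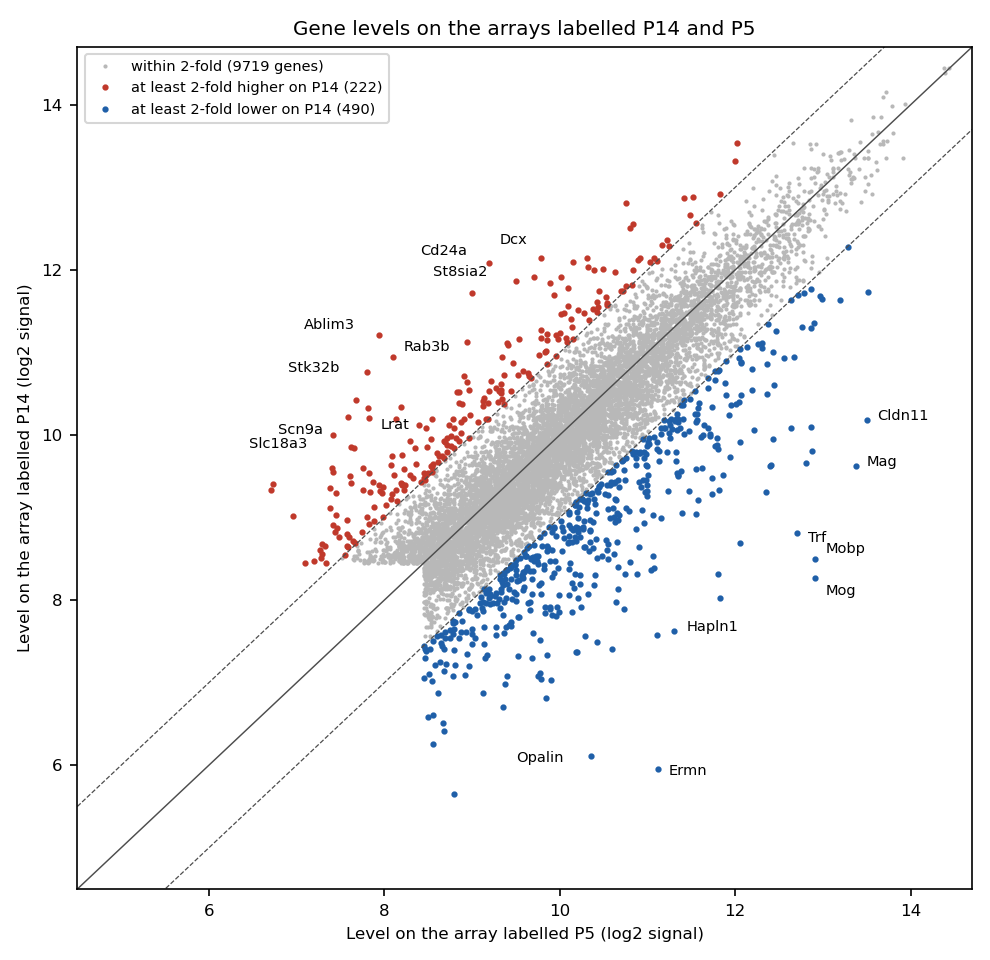
Level of each of the 10431 genes past the filter on the array labelled P14 (vertical axis, log2 signal) against the array labelled P5 (horizontal axis, log2 signal). The solid line marks equal levels and the dashed lines 2-fold differences. Of the genes, 222 lie above the upper dashed line and 490 below the lower one, and the myelin genes Ermn, Mog, Mobp and Opalin lie farthest below it.

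Genes of myelin and mature oligodendrocytes were the group most strongly lower on the P14 array. Ermn, a cytoskeletal protein of myelinating oligodendrocytes, stood at 11.12 on the P5 array and 5.96 on the P14 array, after 5.25 at E17.5 and 5.40 at P1. Mog, a protein of the myelin surface, stood at 12.91 on the P5 array and 8.27 on the P14 array. Mobp, a basic protein of compact myelin, stood at 12.91 and 8.50, a 21.3-fold difference. Opalin, a sialoglycoprotein of oligodendrocytes, stood at 10.36 and 6.11. For all of these genes the P14 level lay nearer to that of the earlier ages than to that of the P5 array.

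Of the 15 largest negative differences, 10 belonged to the myelin list. Besides those already given they were Trf, the iron carrier transferrin (−3.90, 14.9-fold), Mal, a proteolipid of myelin trafficking (−3.80), and Mag, a glycoprotein of the inner myelin face (−3.75, 13.5-fold). Gsn, the actin-severing gelsolin, differed by −3.48. Cldn11, the claudin of myelin tight junctions, differed by −3.32 (9.99-fold), and Ugt8a, which makes galactosylceramide, by −3.15 (8.88-fold). The other 5 were Hapln1, a link protein of the hyaluronan matrix (−3.67), Nipal4 (−3.53), the proteoglycan-cleaving protease Adamts4 (−3.37, 10.3-fold), Fam107a (−3.19) and the cytochrome P450 Cyp2j12, at levels of 8.80 and 5.65. All 38 myelin list members named on the array passed the level filter. All were lower on the P14 array, 32 of them at least 2-fold, with a median of −2.29 against −0.09 for all genes. For 11 of them the lower value lay under 8.45. Mbp, myelin basic protein, stood at 12.43 on the P5 array and 11.01 on the P14 array, a 2.68-fold difference, with 9.35 at E17.5 and 10.05 at P1. Mbp on the P14 array thus lay 0.96 above P1, whereas Opalin lay 0.07 above it. The smallest difference in the list was −0.14.

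Lipid synthesis for myelin went the same way. Enzymes of that list had a median of −1.04 over 17 genes past the filter, with 9 at least 2-fold lower and none higher. They were led by Ugt8a, by Fa2h, the fatty acid hydroxylase of myelin lipids (−3.04, 8.22-fold), by Gpd1, glycerol phosphate dehydrogenase (−2.52), and by the fatty acid elongase Elovl7 (−2.51, 5.70-fold). The general enzymes of fatty acid synthesis Acaca (0.31) and Fasn (0.16) had the largest positive values. Genes of cholesterol synthesis lay closer together, with a median of −0.35 over 20 genes and 1 at least 2-fold lower. That one was Ebp, a sterol isomerase, at 11.38 on the P5 array and 9.57 on the P14 array (3.51-fold). Idi1 (−0.81), Hsd17b7 (−0.79) and Lss (−0.78) followed, all within 2-fold.

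Precursor genes of the lineage differed less than genes of mature cells. The list of oligodendrocyte precursors and newly formed oligodendrocytes had a median of −0.53 over 22 genes, with 5 at least 2-fold lower and none higher. Omg, a myelin glycoprotein, differed by −2.33 (5.03-fold), the calcium-sensing receptor Casr by −2.01, the hyaluronidase Cemip2 by −1.92, and Enpp6, an enzyme of newly forming oligodendrocytes, by −1.90 (3.73-fold). The transcription factor Sox5 (0.65), the cadherin Pcdh15 (0.65), and the proteoglycans Cspg5 (0.60) and Ptprz1 (0.56) of precursors were on the positive side. No member of the list was 2-fold higher.

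Of the 15 genes with the largest positive differences, 4 belonged to the young neuron and outgrowth list: Ablim3, Cd24a, St8sia2 and Dcx. Ablim3, an actin-binding protein, led with 7.94 on the P5 array and 11.21 on the P14 array (3.27), against 11.07 at E17.5 and 11.33 at P1. Stk32b, a kinase, stood at 7.80 and 10.76. Cd24a, a surface protein of young neurons, stood at 9.19 and 12.08, a 7.41-fold difference. The 3 genes were lowest on the P5 array. Ablim3 and Stk32b lay near the earlier ages on the P14 array. Cd24a on the P14 array lay below its levels of 13.48 at E17.5 and 13.41 at P1.

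The other genes among the 15 largest positive differences had varied functions. The synaptic vesicle GTPase Rab3b (2.84) and the kinase-like vesicle protein Camkv (2.74) belong to transmission. Crabp1, which binds retinoic acid, differed by 2.72 (6.59-fold), and Lrat, which stores retinoids as esters, by 2.52. The zinc finger gene Zfp804b differed by 2.68, the sodium channel Scn9a by 2.63, the vesicular transporter Slc10a4 by 2.62 and the vesicular acetylcholine transporter Slc18a3 by 2.59. The lipoxygenase Aloxe3 differed by 2.38. St8sia2, which adds polysialic acid to the adhesion molecule NCAM, stood at 9.5 on the P5 array and 11.87 on the P14 array (5.17-fold). Dcx, the microtubule protein doublecortin of migrating neurons, stood at 9.79 and 12.14 (5.10-fold). Zfp57, a zinc finger protein that protects imprinted methylation, stood at 9.71 and 11.92 (4.63-fold).

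**Figure D2:**
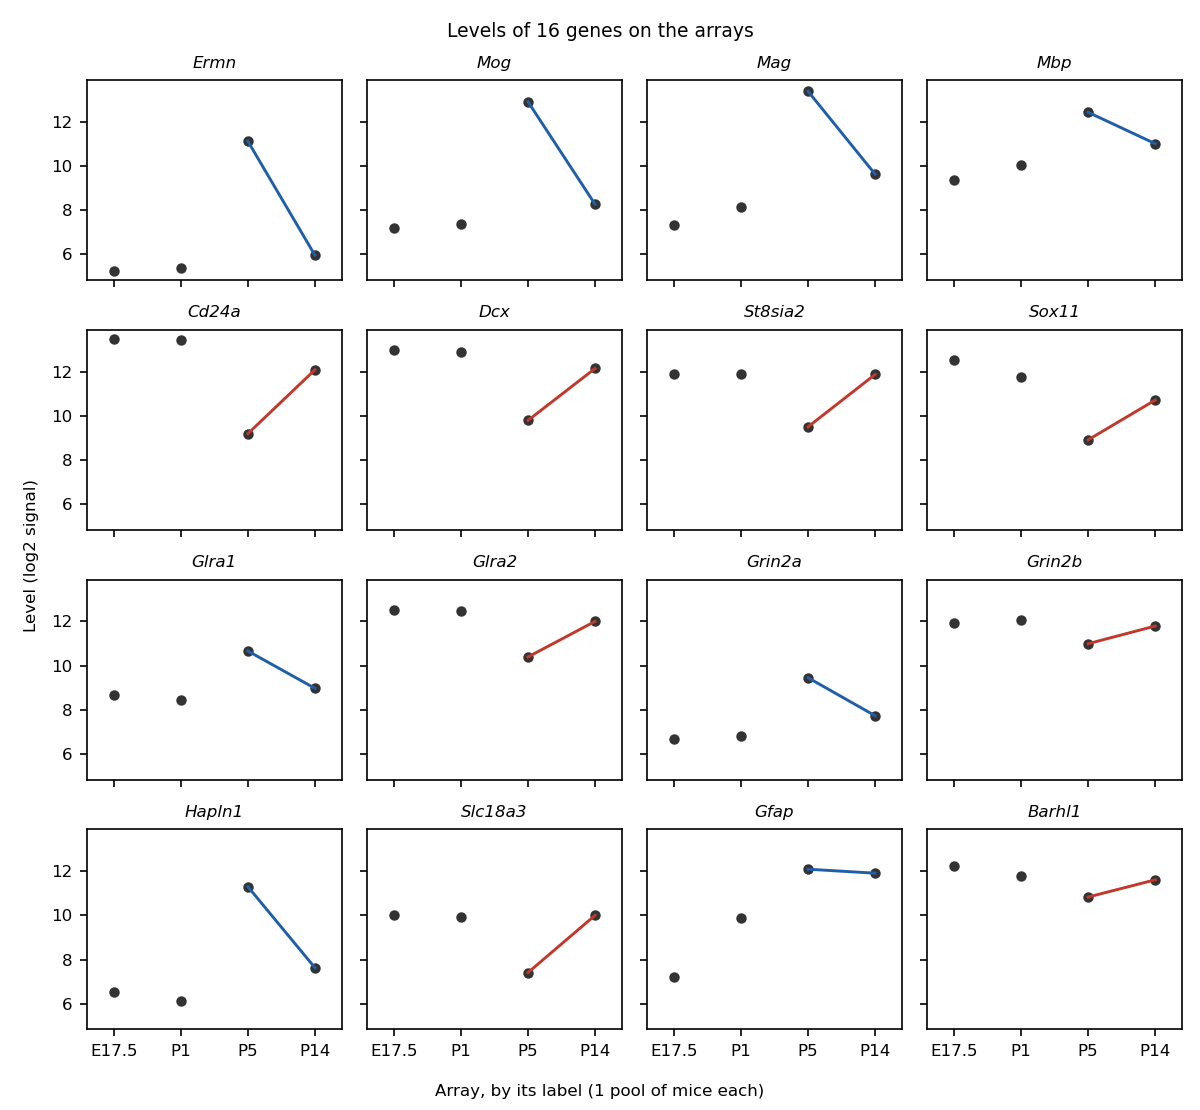
Level (log2 signal, vertical axis) of 16 genes on the arrays labelled E17.5, P1, P5 and P14, with 1 pool of mice per point and a line joining the arrays compared. Ermn stood at 11.12 on the P5 array and 5.96 on the P14 array, Cd24a stood at 9.19 and 12.08, and Gfap at 12.09 and 11.91.

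The DNA before the start of some of these genes is shown because the myelin genes were lower together, and because Myrf and Sox10 are known regulators of myelin genes. The Myrf motif was searched as CTGGCAC and CTGGTAC and the Sox motif as ACAAAG, on both strands, in the 250 bases before each start. Capitals mark a match, and the sequences are those of RefSeq on GRCm38.p6, read 5′ to 3′ on the strand of the gene. Ermn, at chr2:58052865-58053114 on the minus strand, Mog, at chr17:37023399-37023648 on the minus strand, and Mobp, at chr9:120149492-120149741 on the plus strand, were the first 3 of the lower myelin genes. Stk32b, at chr5:37717154-37717403 on the minus strand, and Rab3b, at chr4:108878820-108879069 on the plus strand, were the first 2 of the higher genes with an entry used here.
Ermn: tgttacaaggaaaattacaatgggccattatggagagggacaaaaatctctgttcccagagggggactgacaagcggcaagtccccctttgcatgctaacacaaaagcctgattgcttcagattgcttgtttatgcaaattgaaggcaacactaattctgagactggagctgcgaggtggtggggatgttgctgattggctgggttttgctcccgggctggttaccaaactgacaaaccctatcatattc
Mog: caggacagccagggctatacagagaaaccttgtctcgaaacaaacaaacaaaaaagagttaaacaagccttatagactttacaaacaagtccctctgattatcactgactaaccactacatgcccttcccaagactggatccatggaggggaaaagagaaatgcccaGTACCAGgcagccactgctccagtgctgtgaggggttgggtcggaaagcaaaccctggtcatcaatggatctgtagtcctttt
Mobp: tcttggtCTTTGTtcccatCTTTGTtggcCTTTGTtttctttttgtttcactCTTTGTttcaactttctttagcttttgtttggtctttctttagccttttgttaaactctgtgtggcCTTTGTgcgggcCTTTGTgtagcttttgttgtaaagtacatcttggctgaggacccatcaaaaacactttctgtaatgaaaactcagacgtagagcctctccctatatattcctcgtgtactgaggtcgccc
Stk32b: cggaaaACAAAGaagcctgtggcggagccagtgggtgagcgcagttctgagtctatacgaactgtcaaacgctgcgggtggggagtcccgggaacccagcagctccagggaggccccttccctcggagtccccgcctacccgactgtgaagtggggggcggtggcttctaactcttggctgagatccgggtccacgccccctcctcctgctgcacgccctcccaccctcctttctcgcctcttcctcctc
Rab3b: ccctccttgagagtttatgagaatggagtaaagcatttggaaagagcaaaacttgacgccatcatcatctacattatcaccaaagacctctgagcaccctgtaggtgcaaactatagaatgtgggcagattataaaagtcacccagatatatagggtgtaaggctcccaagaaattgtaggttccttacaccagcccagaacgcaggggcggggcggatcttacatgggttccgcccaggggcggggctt

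The Mog window held 1 Myrf match, from 83 to 77 bases before the start. The Mobp window held 6 Sox matches, between 243 and 115 bases before the start, and Stk32b held 1, whereas the Ermn and Rab3b windows held neither motif. Over all promoters of genes past the filter, 5.46% of 10954 windows held the Myrf motif and 11.8% the Sox motif. Among promoters of genes at least 2-fold lower on the P14 array the shares were 8.72% and 13.6% of 516 windows, and among those at least 2-fold higher 4.42% and 16.4% of 226. For the myelin list, 6 of 45 windows (13.3%) held the Myrf motif and 12 (26.7%) the Sox motif. The young neuron and outgrowth list had 1 of 41 (2.44%) and 9 (22%). Windows of the myelin list held a median of 5 CpG dinucleotides, against 16 for genes past the filter and 15 for the young neuron list. A match is a run of letters and not a bound site, and no share was tested.

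Genes of young neurons and of neurite outgrowth were higher on the P14 array as a group. All 40 genes of this list were named, and 38 passed the filter. Of these, 16 were at least 2-fold higher and none lower, with a median of 0.79. Among all 10431 genes, 222 were at least 2-fold higher. For 5 of the 38 the lower value lay under 8.45. With the level required on both arrays, 11 of 33 were at least 2-fold higher and the median was 0.60. The P5 array held the lowest of the 4 levels in 36 of the 38, a share that was not counted over all genes. Ablim3, Cd24a, St8sia2 and Dcx led the list. Tubb2b, a beta tubulin of growing axons, stood at 12.02 and 13.54 (2.87-fold). Dpysl3, a growth cone protein of the collapsin response family, stood at 12.00 and 13.32 (2.50-fold). Stmn3 and Elavl4, a microtubule-destabilising protein and a neuronal RNA-binding protein, differed by −0.01 each. The other 2 members lay under 8.45 on both arrays.

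Transcription factors of young neurons were positive in 11 of 15 cases past the filter, against 4290 of all 10431 genes. Their median was 0.62, with 3 at least 2-fold higher and none lower. Sox11, a factor of immature neurons, stood at 8.91 on the P5 array and 10.71 on the P14 array (3.48-fold), against 12.52 at E17.5. Ebf1 differed by 1.71 (3.27-fold), Klf7 by 1.02 (2.03-fold), and Sox12 by 0.99. Prox1 went the other way at −0.97, with St18 at −0.29. All of these factors act in the differentiation of neurons.

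Of 25 named factors of rhombic lip and pontine identity, 17 passed the filter, and the other 8 lay under 8.45 on both arrays. Of the 17, 3 were at least 2-fold higher and none lower, with a median of 0.47. Barhl1, the homeobox factor of rhombic lip neurons, stood at 10.83 on the P5 array and 11.61 on the P14 array. Pax6 stood at 10.01 and 10.73, Meis2 at 9.68 and 10.39, Etv1 at 9.96 and 10.14, and Zic1 at 12.46 and 12.91. These markers of the dissected nucleus were thus well over the filter level on both arrays. Zic4 differed by 1.28, Meis1 by 1.11 and Zic5 by 1.04, while Nfib, a factor of neuronal maturation, differed by 0.79. With the median over probe sets Zic4 differed by 0.82 and Zic5 by 0.93, which left 1 gene of the list 2-fold higher. Onecut2 (−0.84) had the largest negative value of the list. Of the Hox genes, which set position along the hindbrain, 12 passed the filter, none was 2-fold apart, and the median was 0.10. They ran from Hoxa5 and Hoxc5 at −0.81 each to Hoxb3 at 0.87 and Hoxa3 at 0.82.

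**Figure D3:**
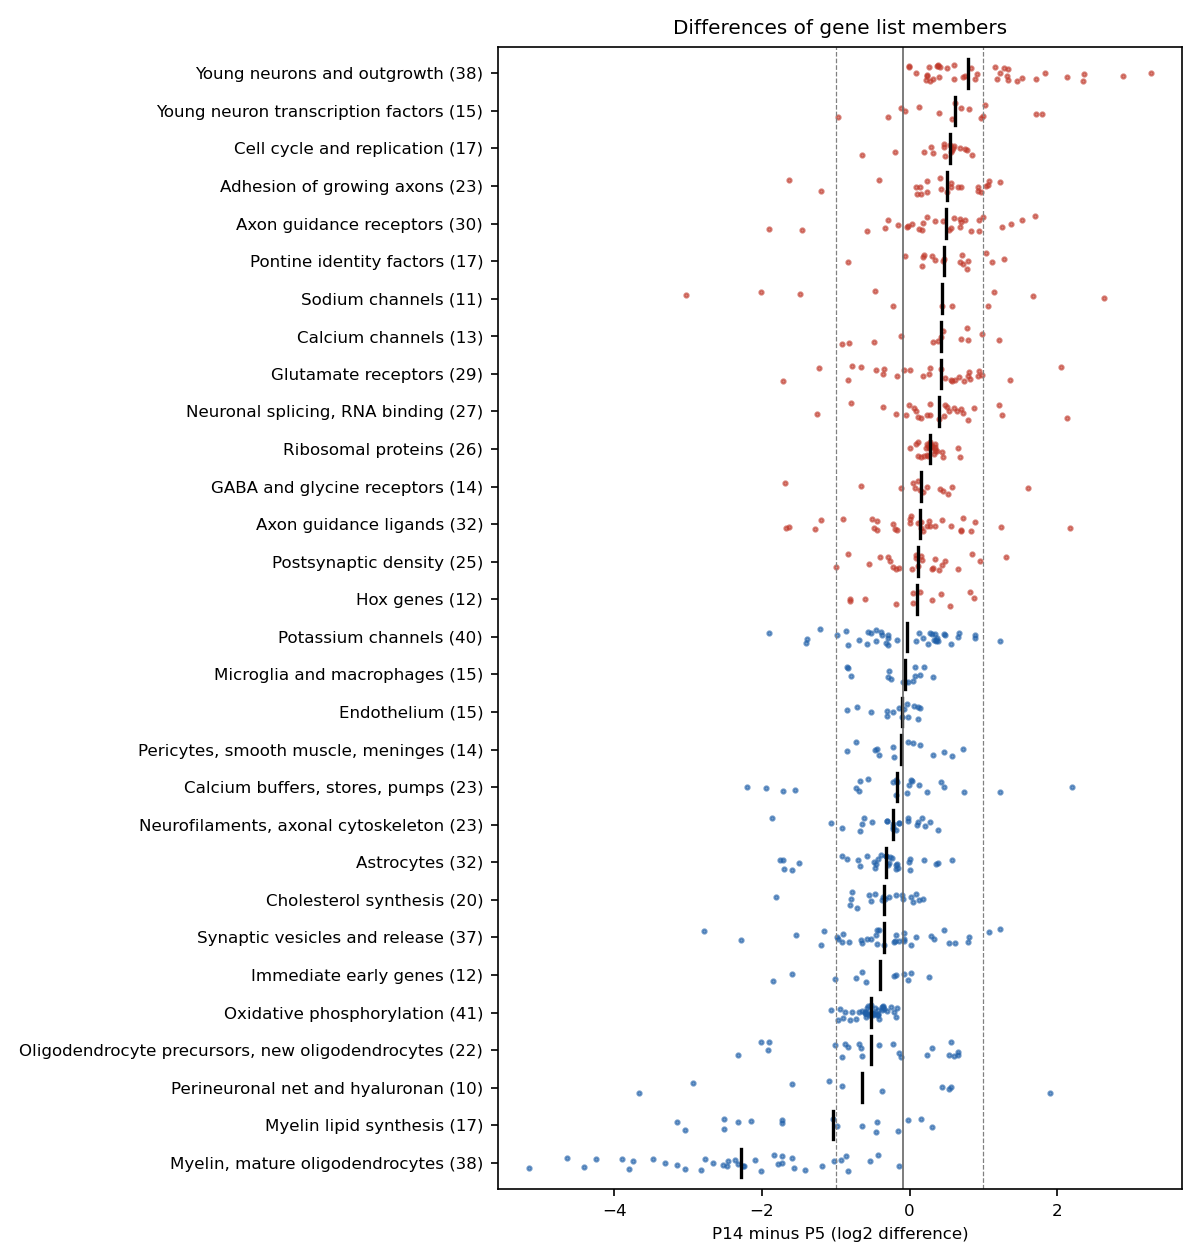
Difference P14 minus P5 (log2, horizontal axis) of each gene past the filter in 30 gene lists, 1 point per gene, with the number of genes in brackets. Black bars are list medians, the grey line is the median of all genes (−0.09) and dashed lines mark 2-fold. The myelin list has the lowest median (−2.29) and the young neuron and outgrowth list the highest of those drawn (0.79).

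Axon guidance genes differed in both directions, with 22 of 30 receptors and 19 of 32 ligands positive, against 4290 of all 10431 genes. The receptors had a median of 0.49 over 30 genes, with 4 at least 2-fold higher and 2 lower. The semaphorin receptors Plxnc1 (1.70, 3.25-fold), Plxnd1 (1.52, 2.87-fold) and Plxna3 (1.37, 2.58-fold) and the Eph receptor Epha8 (1.25) were higher. Plxnb3, a plexin of oligodendrocytes, was 3.76-fold lower (−1.91), and the netrin receptor Unc5b was 2.75-fold lower (−1.46). The ligands had a median of 0.14 over 32 genes, with 2 at least 2-fold higher and 4 lower. Slit1, a repellent read by Robo receptors, stood at 7.66 on the P5 array and 9.84 on the P14 array, and Sema6c differed by 1.24 (2.36-fold). Sema3d (−1.68), Sema4d (−1.63, 3.10-fold), Sema5a (−1.28, 2.43-fold) and the netrin relative Ntng1 (−1.20, 2.30-fold) were lower. With the median over its probe sets Ntng1 differed by −0.60, within 2-fold.

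Adhesion molecules of axons had a median of 0.51 over 23 genes, with 4 at least 2-fold higher and 2 lower. Chl1, a relative of L1 (1.23, 2.35-fold), the contactin Cntn5 (1.08), the cadherin Cdh8 (1.06) and the teneurin Tenm2 (1.03) were higher. Both lower genes belong to the junction between axon and myelin. Cntnap1, of the paranode, stood at 12.19 on the P5 array and 10.55 on the P14 array (3.12-fold), and Nfasc, which organises nodes and paranodes, at 12.46 and 11.26 (2.30-fold).

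Cell cycle genes had a median of 0.55. Of the 17 past the filter 15 were positive, against 4290 of all 10431 genes, but none was 2-fold apart. The other 14 of the 31 named genes lay under 8.45 on both arrays. Ccna2, cyclin A2, stood at 8.94 on the P5 array and 9.79 on the P14 array, and Mki67, the proliferation antigen Ki-67, at 8.47 and 9.25. Ccnd2 (−0.65) and Ccnd1 (−0.20) were the 2 negative members. The 15 progenitor genes had a median of 0.32. The intermediate filament Vim (0.97) led them, and Prom1 (−1.18) was the one gene 2-fold apart.

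Several genes of synaptic vesicles and release were lower on the P14 array, and a few were higher. Of 37 genes, 26 were negative, 5 of them at least 2-fold lower, and 2 genes were at least 2-fold higher (median −0.35). Among all 10431 genes, 6050 were negative. Vamp1, a vesicle fusion protein, stood at 12.40 on the P5 array and 9.62 on the P14 array (6.87-fold). Syt2, a fast calcium sensor of release, stood at 10.14 and 7.86. Slc17a7, the vesicular glutamate transporter VGLUT1, stood at 12.90 and 11.36 (2.91-fold), over 9.38 at P1. Slc17a6, its relative VGLUT2, stood at 11.57 and 11.49, a difference smaller than the spread between probe sets. The priming factor Unc13c differed by −1.20 (2.30-fold), and by −1.54 with the median over its probe sets. Stx1a, the syntaxin of vesicle fusion (1.22, 2.33-fold), and Erc2, of the active zone (1.07, 2.10-fold), were higher.

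Receptors for glutamate had a median of 0.42 over 29 genes, with 2 at least 2-fold apart in each direction. Grm3, a metabotropic receptor also found in glia, stood at 10.76 on the P5 array and 12.81 on the P14 array (4.14-fold). Cnih2, an auxiliary protein of AMPA receptors, stood at 11.52 and 12.88 (2.57-fold). Grin2a, the NMDA receptor subunit of mature synapses, stood at 9.45 and 7.73, and Grm8 at 10.40 and 9.17 (2.35-fold). Grin2b, the NMDA subunit of young synapses, went the opposite way from Grin2a, at 10.99 and 11.79. Scaffold and kinase genes of the postsynaptic density lay close to the other genes, at a median of 0.12 for 25 genes, of which 1 was 2-fold higher and 1 lower. The higher one was Shank2 (1.30, 2.46-fold), whose 3 probe sets ranged from 0.45 to 1.34, and the lower one was Dlg1 (−1.0). Neither call held under every alternative, since Shank2 differed by 0.70 with the median over its probe sets and Dlg1 by −0.96 after centring.

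Inhibitory receptors differed mainly in the glycine receptor subunits. Over 14 genes the median was 0.16, with 1 gene at least 2-fold higher and 1 lower. Glra2, the subunit of immature neurons, stood at 10.39 on the P5 array and 12.00 on the P14 array (3.05-fold). Glra1, the adult subunit, stood at 10.66 and 8.97 (3.23-fold), and Glrb, which anchors both to gephyrin, differed by −0.66. The GABA receptor subunits Gabra3 (0.57) and Gabra5 (0.52) had the next largest positive values. Among chloride transporters, Slc12a2, the importer NKCC1, stood at 11.32 and 9.68 (3.12-fold), while Slc12a5, the neuronal exporter KCC2, stood at 11.72 and 11.66. Slc12a2 is also made by oligodendrocytes and other glia, and the myelin list was lower on the same array. Its part in the Slc12a2 difference was not tested.

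Sodium channel genes had large differences in both directions. The filter left 11, of which 4 were at least 2-fold higher, 3 lower and 4 within 2-fold. Scn4b, a beta subunit of fast-firing neurons, stood at 9.84 on the P5 array and 6.81 on the P14 array. Scn2b (−2.02, 4.06-fold) and the adult pore subunit Scn1a (−1.49, 2.81-fold) were lower too. Scn9a stood at 7.59 and 10.22, and its 2 probe sets differed by 2.63 and 2.73. Fgf13, a channel-binding protein (1.67, 3.18-fold), Scn3b (1.14, 2.20-fold) and Scn3a, the pore subunit of young neurons (1.06, 2.08-fold), were higher.

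Of 40 potassium channel genes, 1 was at least 2-fold higher and 4 lower, and the median of −0.04 became 0.04 under quantile normalisation. Kcna1, of the juxtaparanode of myelinated axons, stood at 11.79 on the P5 array and 9.88 on the P14 array (3.76-fold). Its partner subunit Kcnab2 (−1.40, 2.64-fold), the glial channel Kcnj10 (−1.39, 2.62-fold) and the leak channel Kcnk1 (−1.21, 2.31-fold) were lower as well. Kcnd3, of the A-type current, differed by 1.22, at 8.29 and 9.51. With the level required on both arrays, none of 37 potassium channel genes was 2-fold higher and 4 were lower. The 13 calcium channel genes had a median of 0.43, and Cacna1h (1.21), a T-type channel, was the only one 2-fold apart. It stood at 8.20 and 9.41, and with the level required on both arrays none of 12 calcium channel genes was 2-fold apart. Kcnd3 and Cacna1h passed the filter through the P14 array alone.

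Calcium buffers, stores and pumps numbered 23, with 2 at least 2-fold higher, 4 lower and a median of −0.17. The buffers parted. Calb1, calbindin, stood at 7.4 on the P5 array and 9.60 on the P14 array, whereas Calb2, calretinin, stood at 13.19 and 11.63 (2.95-fold), and Pvalb, parvalbumin, at 8.55 and 6.61. The exchanger Slc24a2 differed by −2.21 (4.63-fold) and Ryr1, a calcium release channel, by 1.22. Calb1 and Ryr1 passed the filter through the P14 array alone, and Pvalb through the P5 array alone. With the level required on both arrays, none of 19 genes of this list was 2-fold higher and 3 were lower. Of the sodium pump genes, 7 passed the filter, and Fxyd6, a regulator of the pump, was the only one 2-fold apart, at 10.32 and 12.03 (3.27-fold). Cytoskeletal genes of mature axons had a median of −0.22 over 23 genes, with 2 at least 2-fold lower and none higher. Nefh, the heavy neurofilament, stood at 12.36 and 10.50 (3.63-fold) and Tuba4a at 12.78 and 11.72 (2.08-fold).

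Pairs of related genes, with one taken as the early member and the other as the late member, were set side by side, each by its own difference. This assignment came from general knowledge and was not tested for any pair. Both members passed the filter in 37 of the 44 pairs. The early member had the more positive difference in 25 pairs and the late member in 12. The gap between the 2 differences was at least 1 in favour of the early member in 15 pairs and in favour of the late member in 2. In 17 pairs the early member was positive and the late one negative, and in 3 it was the reverse. The widest gap was that of Glra2 over Glra1 (3.30), followed by Grin2b over Grin2a (2.52), Kcna3 over Kcna1 (2.28), Syt1 over Syt2 (2.20) and Tubb2b over Tubb4a (2.14). Syt1 itself hardly differed (−0.08), so that gap lay mostly in Syt2. The pairs with at least 1 in the other direction were Slc12a2 and Slc12a5 (−1.58), described with the chloride transporters, and the lactate dehydrogenase subunits Ldhb and Ldha (−1.28). The pairs were chosen with earlier results of these data known, and some genes stand in more than 1 pair.

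**Figure D4:**
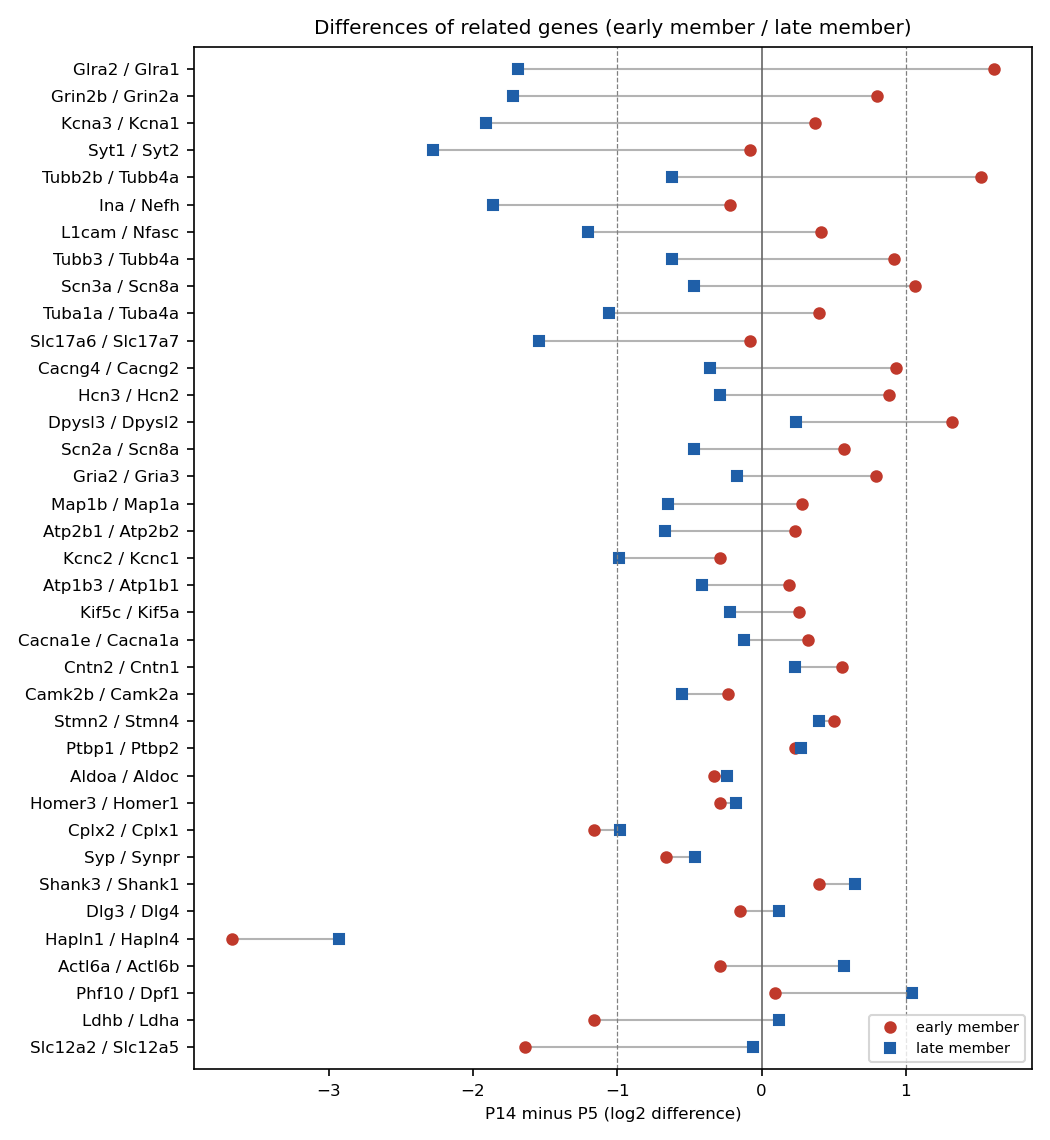
Differences P14 minus P5 (log2, horizontal axis) of 37 pairs of related genes, with the early member as a circle and the late member as a square, sorted by the gap between them. The early member lies to the right in 25 pairs, and Glra2 with Glra1 shows the widest gap (3.30).

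The matrix around neurons held some of the largest differences outside myelin. The perineuronal net and hyaluronan list kept 10 genes, of which 4 were at least 2-fold lower and 1 higher (median −0.65). Over the 7 genes past the level on both arrays the median was 0.44. The link proteins were lowest. Hapln1 stood at 11.30 on the P5 array and 7.63 on the P14 array, Hapln4 at 10.42 and 7.49, and Hapln2, of the nodes of Ranvier, at 9.27 and 7.67. Hapln2 is also counted in the myelin list. Tnc, tenascin C of the immature matrix, went the other way, at 10.02 and 11.92 (3.73-fold). Of 23 synapse organisers, 2 were 2-fold higher and 2 lower, and their median of −0.10 became 0.00 under quantile normalisation. Lgi3, a secreted ligand of ADAM receptors, was 8.4-fold lower (−3.07), and the Wnt ligand Wnt3 differed by −1.28. The cerebellins Cbln1, at 7.38 and 9.36, and Cbln2, at 7.6 and 8.76, were higher. Both passed the filter through the P14 array alone. With the level required on both arrays, none of 18 organisers was 2-fold higher and 1 was lower.

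Subunits of oxidative phosphorylation and ribosomal proteins differed by small amounts, each list in 1 direction. All 41 subunits of oxidative phosphorylation past the filter were lower on the P14 array, against 6050 of all 10431 genes. Their median was −0.52, and 1 of them was 2-fold lower. They ran from −1.06, for the complex I subunit Ndufb3, to −0.17. All 41 had their highest level of the 4 arrays on the P5 array, a share that was not counted over all genes. Centring the columns or quantile normalisation left all 41 below 0, with medians of −0.48 and −0.46, and under quantile normalisation none was 2-fold lower. Ribosomal protein genes were higher, all 26 past the filter, against 4290 of all 10431 genes. Their median was 0.28. They ran from 0.01 to 0.68, for Rpsa of the small subunit, and none was 2-fold apart. All 26 stayed above 0 under both other scalings, with medians of 0.32 and 0.33, and 25 of 26 did so with the median over probe sets. Genes of glycolysis and lactate handling were mixed, with 12 of 17 negative, 5 positive and a median of −0.32. Among all 10431 genes, 6050 were negative. The phosphofructokinase Pfkp (0.63) had the largest positive value. Ldhb (−1.16, 2.23-fold) and the neuronal enolase Eno2 (−1.03, 2.04-fold) were at least 2-fold lower, though Eno2 differed by −0.99 after centring.

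**Figure D5:**
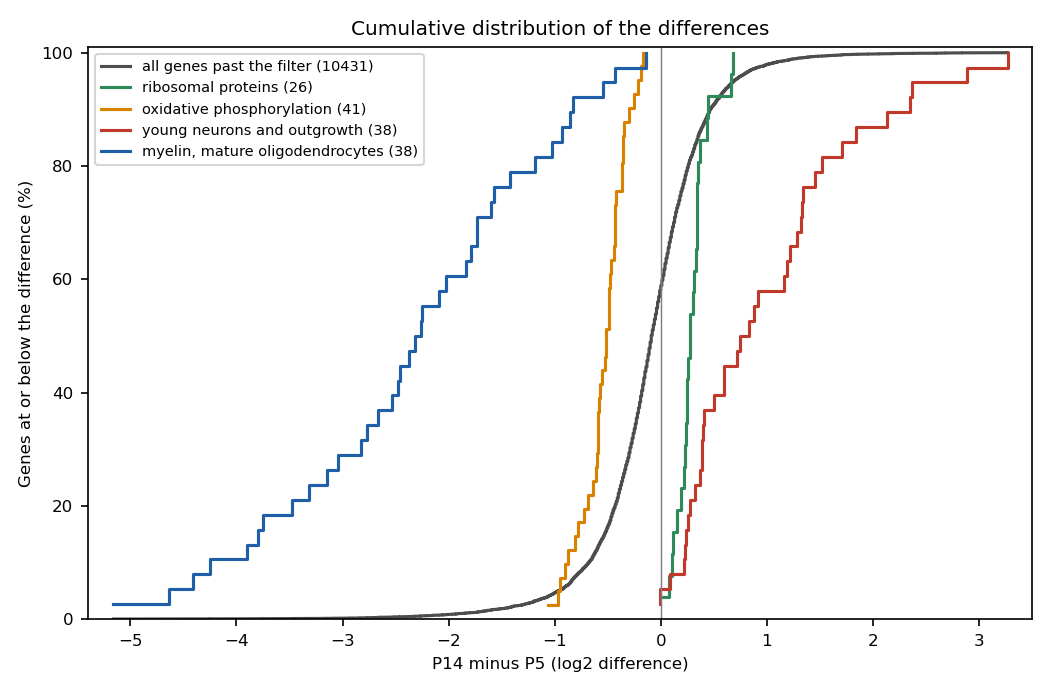
Cumulative share of genes (%, vertical axis) at or below each difference P14 minus P5 (log2, horizontal axis), for all 10431 genes past the filter and for 4 gene lists. The curve of oxidative phosphorylation lies wholly below 0 and that of ribosomal proteins wholly above it, with medians of −0.52 and 0.28.

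Most astrocyte genes were lower on the P14 array, with 26 negative and 6 positive, against 6050 negative of all 10431 genes. All 32 named passed the filter, 5 being at least 2-fold lower and none higher (median −0.32). Gfap, the intermediate filament of astrocytes, stood at 12.09 on the P5 array and 11.91 on the P14 array, and Aqp4, the water channel of astrocyte endfeet, at 12.35 and 12.36. Both were above their E17.5 levels of 7.19 and 10.74. The connexin Gjb6 (−1.76), the calcium-binding S100b (−1.71, 3.27-fold), the neurotensin receptor Ntsr2 (−1.70, 3.25-fold) and Gpr37l1 (−1.59, 3.01-fold) were lower. Thus the filament and the water channel differed by little more than the probe set spread or less, while 3 of the genes just named were more than 3-fold lower.

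Markers of microglia and of blood vessels differed little. Microglial genes had a median of −0.06 over 15 past the filter and endothelial genes −0.10 over 15, which became 0.05 and 0.01 under quantile normalisation. The median was −0.12 over 14 genes of pericytes, smooth muscle and meninges, and no gene of the 3 lists was 2-fold apart. Csf1r, the microglial growth factor receptor, stood at 10.10 on the P5 array and 9.82 on the P14 array. Of the red blood cell list 1 of 7 named genes passed the filter, and of the choroid plexus and ependyma list none of 11, with levels of 5.90 to 8.39 on the 2 arrays. GABAergic and glycinergic neuron genes passed the filter in 5 of 15 cases, 1 at least 2-fold higher (Calb1) and 1 lower (Pvalb), with a median of −0.20. Calb1 passed through the P14 array alone and Pvalb through the P5 array alone. With the level required on both arrays, none of 3 genes of the list was 2-fold apart. Gad2 stood at 8.88 and 8.68, and Gad1 at 7.84 and 8.16. In the cerebellar list 4 of 13 genes passed, 2 of them at least 2-fold higher (Cbln1 and Calb1), with a median of 1.23. Both of these passed through the P14 array alone, and with no filter the median over all 13 genes was 0.01, with 2 higher and 2 lower.

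The 2 cholinergic transporters past the filter were higher on the P14 array. Slc18a3, which loads acetylcholine into vesicles, had levels of 10.01 (E17.5), 9.93 (P1), 7.41 (P5) and 10.00 (P14). Slc5a7, the choline importer of cholinergic terminals, stood at 10.31, 10.27, 8.4 and 10.12 in the same order. Both were therefore lower on the P5 array than on the other 3. On that array both lay under 8.45, so they passed the filter through the P14 array alone. They were the only 2 of 9 named members of the cholinergic and motor neuron list past the filter, and Chat, the enzyme that makes acetylcholine, lay under it at 7.22 and 8.19. With no filter the median over all 9 was 0.44, with 3 at least 2-fold higher and none lower. Slc6a4, the serotonin transporter, stood at 7.80 and 9.01. Tph2, the serotonin synthesis enzyme of the neighbouring raphe, lay under the filter at 7.17 and 8.02, as did Dbh at 6.14 and 6.21. The monoaminergic list had 4 of 11 genes past the filter with a median of 0.55, and 1 past it on both arrays. It held 1 at least 2-fold higher and 1, the amine oxidase Maob, lower (−1.06).

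Retinoid genes, which act in hindbrain patterning and later differentiation, had 3 of 11 at least 2-fold higher and 1 lower, with a median of −0.19. The lower one was the retinal reductase Dhrs3 (−1.06), which differed by −0.96 under quantile normalisation. Crabp1 had levels of 13.36 (E17.5), 11.90 (P1), 9.0 (P5) and 11.72 (P14), and Lrat and the receptor Rxrg (1.58) were higher as well. Lrat and Rxrg lay under 8.45 on the P5 array. Where both arrays had to reach the level, 1 of 7 retinoid genes was 2-fold higher and 1 lower. The thyroid hormone list had 4 of 11 at least 2-fold lower and none higher, with a median of −0.45. Where both arrays had to reach the level, 1 of 7 thyroid genes was 2-fold lower and the median was 0.09. Thrsp, a gene of lipid synthesis, stood at 9.52 and 7.32, and the transcription factor Klf9 at 11.28 and 10.07 (2.31-fold). Immediate early genes, which respond to neuronal activity, had 3 of 12 at least 2-fold lower and none higher, with a median of −0.40. Arc stood at 10.17 and 8.32, Egr1 at 9.93 and 8.33, and Fos at 9.59 and 8.58 (2.01-fold). Under quantile normalisation the median of the list was −0.14 and Fos was within 2-fold. With the level required on both arrays the median was −0.20 over 10 genes, of which Fos alone was 2-fold lower.

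RNA-binding and splicing regulators of neurons had a median of 0.40 over 27 genes, with 3 at least 2-fold higher and 1 lower. Mex3a, a translational repressor, stood at 7.42 on the P5 array and 9.55 on the P14 array, and the splicing factors Celf5 (1.25, 2.38-fold) and Celf3 (1.21, 2.31-fold) were higher. Mbnl2, a splicing factor of mature transcripts, was 2.38-fold lower (−1.25). Chromatin and DNA methylation genes had a median of 0.10 over 26 genes, 2 of them at least 2-fold higher. Both encode subunits of the BAF remodelling complex, Smarcd3 (1.06, 2.08-fold) and Dpf1 (1.04, 2.06-fold). Neurotrophin and insulin-like growth factor genes had medians of 0.04 over 7 genes and 0.25 over 9, with none 2-fold apart. Genes of interferon and class I antigen presentation had a median of 0.40 over 8 genes, again with none 2-fold apart. Housekeeping genes had a median of −0.17 over 12 genes and none 2-fold apart, with Actb, beta actin, at 13.94 and 14.01.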

How the data were processed

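Per the submitters' processing notes, the authors made the deposited log2 signals with Affymetrix Expression Console (version, summary method and normalisation not given in the sources used here). Deposited values, from 1.84 to 14.72, were taken to be log2. They were not rescaled here, and the medians of the 35556 probe sets were 7.89 (P5) and 7.92 (P14). Per the labels, total RNA was labelled through sense-strand cDNA. The platform table named 23410 probe sets, of which 21789 carried 1 symbol and 1621 several; 12146 were not named by it and were left out. Symbols were compared through gene identifiers with RefSeq (GRCm38.p6), found for 21698 probe sets, and none differed.

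Genes were counted from a 2-fold difference upward. No test was made, since each age had 1 array; the number of arrays limits the precision. Named genes were the 15 largest positive and 15 largest negative differences, leaving out predicted, clone-named, small RNA, immunoglobulin and olfactory or vomeronasal receptor genes, up to 4 members in each direction per list, all members of the gene pairs, and a fixed set of markers. The members and lists were chosen with earlier results of these data known. Alternatives covered the choice of probe set, level filter, scaling and threshold. The steps were tested on simulated data and run in Python 3.11.15 with pandas 2.3.3. Promoter windows came from RefSeq, with an entry for 8405 of the 10431 genes.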

Additional observations from a re-analysis of the deposited data

How the results depend on the processing

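The counts of 222 genes at least 2-fold higher and 490 lower stayed within 1.5 times under the median over a gene's probe sets, the probe set chosen over all 4 arrays, no level filter, centring and quantile normalisation. Requiring the level on both arrays gave 142 higher and 291 lower, and a level at the upper quartile (9.92) gave 134 and 303; both test fewer genes (9298 and 5505). A threshold of 1.5 on the log2 scale gave 63 and 194, and one of 0.58 gave 761 and 1392. Quantile normalisation moved the median of all genes from −0.09 to 0.01 and gave 270 higher and 404 lower. The cerebellar list's median reversed to −0.19 under the upper-quartile level, where 1 of its 4 genes was left. Medians near 0 or over few genes also changed sign: with the level required on both arrays, potassium channels (0.09), the perineuronal net (0.44) and thyroid genes (0.09); at the upper quartile, cell cycle (−0.20, 3 genes) and retinoid genes (0.89, 4 genes); and with no filter, GABAergic genes (0.29), the perineuronal net (0.03) and interferon genes (−0.01), besides smaller shifts across 0. Of the other list medians over all alternatives, 288 moved by less than the probe set spread and 37 by more. Of values of named genes these counts were 2547 and 10. A reversal was counted only where the main difference was at least 1 in size, and no named gene had one. Smaller differences of named genes could change sign without being counted. Of 135 named genes at least 2-fold apart, 4 were within 2-fold with the median over probe sets (Ntng1, Shank2, Zic4, Zic5), 3 after centring (Dlg1, Eno2, Fos) and 5 under quantile normalisation (Dlg1, Eno2, Fos, Dhrs3, Ndufb3). No paired analysis was possible because each age had 1 array, and for the same reason no array could be left out.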

Other observations

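Some genes stood apart on the P14 array itself, outside the range of the other 3 arrays; they were chosen after their values were seen. Of the 222 genes at least 2-fold higher than on the P5 array, 49 had their highest level of the 4 arrays on the P14 array, and 10 of these by at least 0.5 on the log2 scale. Hspb1, a small heat shock protein, had the widest margin, at 8.26 (E17.5), 8.06 (P1), 8.78 (P5) and 10.19 (P14). Cpne7, a calcium-dependent membrane-binding copine, stood at 7.06, 7.44, 7.55 and 8.55. Its levels on the other 3 arrays lay under 8.45, so it passed the filter through the P14 array alone. Stum stood at 8.16, 8.92, 8.82 and 9.96 in the same order, and the kinase Prkch at 8.10, 8.65, 8.45 and 9.54. Adcy1, a calcium-stimulated adenylyl cyclase, stood at 10.65, 11.70, 11.08 and 12.15.

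Of the 490 lower genes, 31 had their lowest level on the P14 array. Mzt1, a component of microtubule-organising centres, had the widest margin, at 10.58, 10.09, 10.54 and 9.40 for E17.5, P1, P5 and P14. For the larger part of both groups the P14 array lay near the P1 array instead. Its value was within 0.5 of the P1 value in 167 of the 222 higher and 305 of the 490 lower genes, whereas the P5 value was so in 5 and 1. The P5 array held the lowest of the 4 values in 213 of the 222 and the highest in 488 of the 490. Both groups were chosen for their difference between the P5 and P14 arrays. A P1 value near one of these arrays was therefore bound to lie away from the other. These counts thus describe the chosen genes only. Over all 10431 genes, the Pearson correlation with the P1 array was 0.797 for the P5 array and 0.965 for the P14 array.

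Probe sets outside the gene comparison differed as well. Of 761 probe sets with several gene symbols past the level, 21 were at least 2-fold higher on the P14 array and 7 lower (3.68% together). Of 3472 probe sets that the platform table did not name, 63 were higher and 70 lower (3.83%).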
